A study of Triticum aestivum with 3 samples.

Results

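The genes described here are the high-confidence genes with the highest transcript levels in wheat seedling shoots. They were chosen by their measured TPM (a measure of transcript abundance, the estimated counts of a transcript divided by its effective length and scaled to the same total in each library), as the genes whose TPM, summed over transcripts, had a median of at least 500 over 3 replicate libraries. This rule gave 175 genes of 165276 genes listed. They made up 0.166% of the 105200 high-confidence genes and 0.247% of the 70762 high-confidence genes with a median above 0 TPM. Because TPM chose them, their levels are given as a description, and no test was made of them. All the libraries came from whole shoots of the cultivar Chinese Spring, untreated seedlings that the labels call WT and describe as 12 and as 14 days old, grown on agar in long days. The libraries form a single group of 3 biological replicates, so no treatment, genotype or tissue was compared.

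Bread wheat carries 3 subgenomes, called A, B and D, each with a copy of chromosome groups 1 to 7, and most genes exist as related copies on the corresponding chromosomes. In green shoots of cereals, a small number of nuclear genes, many of them for light harvesting, carbon fixation and translation, is known to supply a large part of the messenger RNA. The deposited tables name genes only by identifier, which gives the chromosome and the order of the gene along it, and 0 of the 175 identifiers occurred in the reference gene table used here. Products and roles are therefore not given, and the shoot label could not be checked against marker genes. Transcript levels in bulk tissue also cannot tell more RNA per cell from more cells of a type.

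The libraries held 75465873, 76337649 and 67470696 estimated counts for replicates 1, 2 and 3. Even the abundant gene with the fewest reads rested on a median of 1201 estimated counts, and the median gene on 56705. The error of these estimated counts was not measured. Replicate 3 stood apart from the other libraries. The median log2 ratio of replicate 3 to the mean of replicates 1 and 2 was 0.27 on the TPM scale over the 175 abundant genes, whereas it was -0.62 over 52620 high-confidence genes with at least 10 estimated counts in each replicate. TPM has the same total in each library, so a larger share for some genes leaves a smaller share for the rest. These medians are therefore not independent. Between replicates 2 and 1, the median log2 ratio was 0.04 over the abundant genes and 0.07 over the 52620 genes. Values of the main results with a replicate left out are given in the last section, mostly as ranges.

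The 175 genes took 37.7%, 38.4% and 49.8% of all TPM in replicates 1, 2 and 3, or 42.0% ± 6.79 (SD, n = 3). By estimated counts, which are not corrected for length, they took 28.4%, 30.3% and 42.3%, or 33.7% ± 7.57 (SD, n = 3). The remaining 105025 high-confidence genes together held 46.9%, 48.2% and 39.0% of TPM in replicates 1, 2 and 3, so in replicate 3 the 175 genes outweighed all other high-confidence genes and in the other libraries they did not. Low-confidence genes held the rest, 13.3% ± 2.11 (SD, n = 3), and 14 of them also reached a median of 500 TPM, though they were left aside here by the rule.

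The share was concentrated in a few genes. The 5 highest took 17.7% ± 4.24 of TPM (SD, n = 3) and the 15 highest 22.1% ± 4.63, while the 75 genes between 500 and 1000 TPM took 5.52% ± 0.283 in all. The share of the 5 highest genes was 14.3% in replicate 1, 16.3% in replicate 2 and 22.4% in replicate 3. For the other 170 genes the shares were 23.4%, 22.0% and 27.4%, so the excess in replicate 3 was present in both parts. The median of the 175 values was 1039 TPM, with the middle of the distribution between 718 and 1626 TPM at the quartiles. In all, 66 genes lay between 1000 and 2000 TPM, 27 between 2000 and 5000 TPM, and 7 above 5000 TPM.

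**Figure D1:**
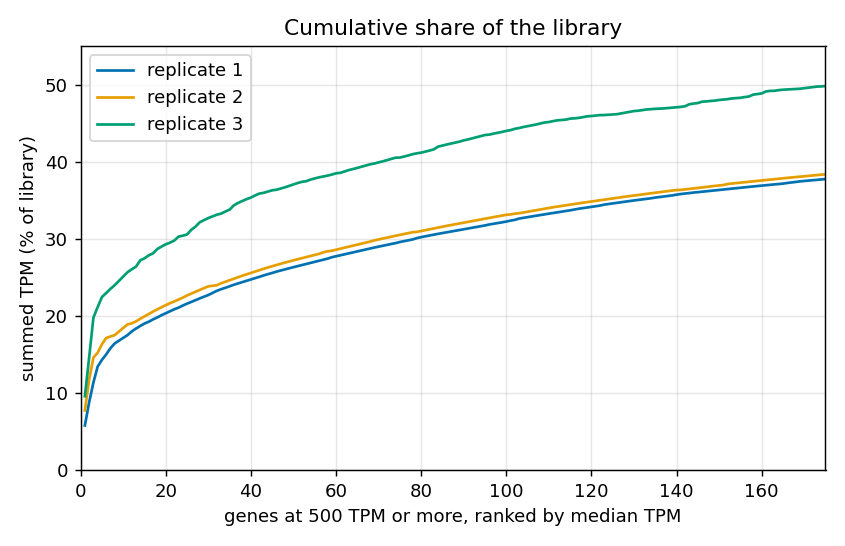
Summed TPM as a percentage of the library (vertical axis) over the 175 genes at 500 TPM or more, ranked by their median TPM (horizontal axis), with a line for each replicate. The curves end at 37.7% in replicate 1, 38.4% in replicate 2 and 49.8% in replicate 3, and rise steeply over the first few genes.

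TraesCS3B02G186100 on chromosome 3B had the highest level, with 58066, 77515 and 95927 TPM in replicates 1, 2 and 3, a mean of 77169 ± 18933 (SD, n = 3). It alone took 5.81%, 7.75% and 9.59% of TPM and 6.88%, 8.66% and 12.0% of the estimated counts in replicates 1, 2 and 3. TraesCS5D02G425100 on chromosome 5D followed with 29971, 39947 and 50140 TPM, a mean of 40019 ± 10085 (SD, n = 3). Both genes were lowest in replicate 1 and highest in replicate 3. The highest gene had 1.94 times the median TPM of the second, and the replicates of the second did not reach the lowest replicate of the first.

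TraesCS3B02G523500 had 25683, 28591 and 51743 TPM in replicates 1, 2 and 3, and its annotated transcript was only 273 bases long. TraesCS6B02G250500, of 246 bases, had 20639, 6282 and 13645 TPM, with a mean of 13522 ± 7179 (SD, n = 3). TraesCS5D02G010200, of 1365 bases, had 8698, 10911 and 12998 TPM. The last pair overlapped over the replicates, so their order by median TPM (13645 and 10911) did not exceed the spread.

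Ranks 6 to 15 ran from 7048 to 3141 TPM. TraesCS7D02G256300 had 7048, 8183 and 5300 TPM in replicates 1, 2 and 3, and TraesCS7D02G256000, 3 places before it on chromosome 7D, had 8069, 1950 and 5327 TPM. TraesCS3B02G486700 had 6215, 1778 and 4790 TPM and TraesCS1A02G384800 had 4813, 1415 and 3782 TPM, both lowest in replicate 2. TraesCS5D02G488100 had 3731, 2562 and 3400 TPM. TraesCS5D02G169900 had 3365, 3359 and 8199 TPM, with replicate 3 far from the others. TraesCS1B02G405000 had 3141, 3158 and 2645 TPM and was the steadiest of the 15, with a coefficient of variation (the SD over the mean) of 9.77%. The remaining places belonged to TraesCS1D02G180500, TraesCS2D02G573200 and TraesCS3B02G563300, which shared a single set of values described below.

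**Figure D2:**
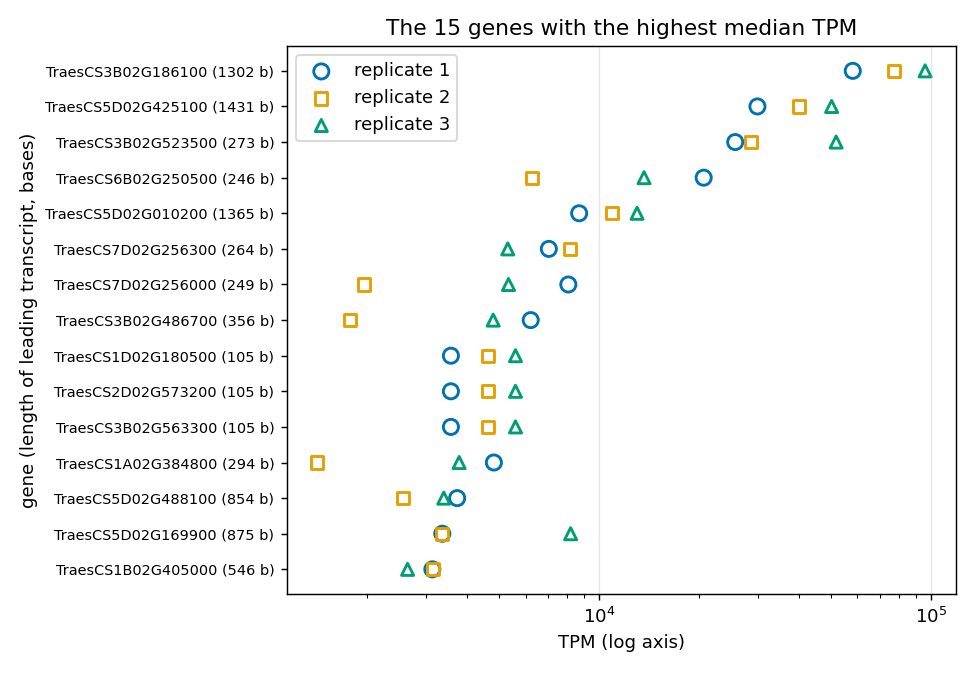
TPM in each replicate (horizontal log axis) of the 15 genes with the highest median TPM, ordered from the top, with the length of the leading transcript in bases beside each identifier. TraesCS3B02G186100 lies between 58066 and 95927 TPM in all replicates, and 4 of the genes have replicate 2 at less than the value of either other replicate divided by 2.

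At the limit itself, the 3 genes just inside were TraesCS3B02G187700 with a median of 506 TPM (517, 475 and 506 in replicates 1, 2 and 3), TraesCS3D02G536300 with 510 TPM (510, 552 and 189) and TraesCS6D02G247400 with 511 TPM (419, 511 and 681). Just outside were TraesCS7B02G046600 and TraesCS3D02G053500, each with the same 497, 448 and 514 TPM, and TraesCS4D02G068100 with a median of 496 TPM (496, 576 and 380). The values on both sides of the limit overlapped, so membership near 500 TPM depended on the replicate. Of the 175 genes, 138 reached 500 TPM in all 3 replicates and 37 in 2 of them. The replicate that fell short was replicate 3 in 28 genes, replicate 2 in 5 and replicate 1 in 4.

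The subgenomes contributed 50 genes (A), 59 genes (B) and 66 genes (D). These are 28.6%, 33.7% and 37.7% of the 175, beside 33.3%, 33.7% and 33.0% of the high-confidence genes with a median above 0 TPM. Per 1000 listed high-confidence genes there were 1.41 on A, 1.66 on B and 1.93 on D. Among the 148 abundant genes with transcripts of at least 300 bases the numbers were 46, 47 and 55. Without the length correction, at 500 CPM (estimated counts scaled to the library total), D lost its lead, with 36.3% of genes on B, 33.1% on D and 30.6% on A. In TPM the order was also another. Genes on B took 18.2%, 18.5% and 24.9% of the library in replicates 1, 2 and 3, those on D 13.4%, 14.0% and 17.2%, and those on A 6.15%, 5.88% and 7.70%. The order of B and D rested on a pair of genes. Without TraesCS3B02G186100, the highest gene, B had 12.4%, 10.7% and 15.3%, below D in every replicate. With TraesCS5D02G425100, the second, left out too, D was below B in every replicate, with 10.4% in replicate 1 and 12.2% in replicate 3. Chromosome 3B, with the highest gene of all, accounted for 10.5%, 12.4% and 16.9% of the library.

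Chromosome group 2 held the most abundant genes, 45 of 175 (25.7%), beside 16.9% of the listed high-confidence genes and 16.5% of those above 0 TPM. Group 5 held 36 genes (20.6%, beside 15.7% of those listed) and group 7 only 14, or 0.886 per 1000 listed genes against 2.53 on group 2. The lead of group 2 depended on the limit, since of the 100 genes at 1000 TPM or more 24 lay on group 5 and 21 on group 2. The part on group 2 was 31.3% without replicate 1, 29.8% without replicate 2 and 24.6% without replicate 3. By chromosome, 2D had 18 genes, 2A and 5D 15 each, and 7B had 2, which is 3.07 per 1000 listed genes on 2D, 2.59 on 2A, 2.70 on 5D and 0.412 on 7B. Many abundant genes of group 2 had modest levels, since together they took only 4.31%, 4.65% and 6.63% of TPM in replicates 1, 2 and 3. No enrichment test was run over these counts, and genes that are copies of each other are not independent. Along the chromosomes, 16.6% of the abundant genes lay in the outermost 10% of the gene order at either end, beside 16.8% of the high-confidence genes above 0 TPM.

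**Figure D3:**
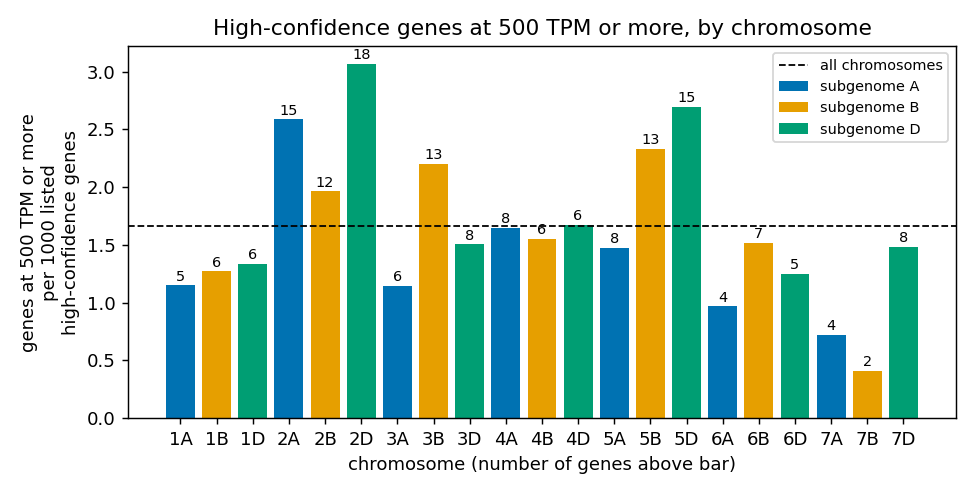
Number of high-confidence genes at 500 TPM or more per 1000 listed high-confidence genes (vertical axis) on each of the 21 chromosomes, with the number of genes above each bar and the value over all chromosomes as a dashed line. Chromosome 2D has 3.07 and chromosome 7B 0.412 per 1000.

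The highest gene of a chromosome differed widely in level between chromosomes. The genes of a group are set side by side only as the highest of their chromosomes. Whether they are copies of each other was not examined, so these values do not compare such copies. In group 1 these were TraesCS1A02G384800, TraesCS1B02G405000 and TraesCS1D02G180500, with medians of 3782, 3141 and 4609 TPM. In group 2, TraesCS2A02G066800 had 2108, 2514 and 5170 TPM in replicates 1, 2 and 3, TraesCS2B02G272300 had 1481, 1554 and 1548 TPM, and TraesCS2D02G573200 had the values of TraesCS1D02G180500. By its highest genes, group 3 was the most uneven. TraesCS3B02G186100 stood beside TraesCS3A02G230000 with 1819, 2043 and 2752 TPM and TraesCS3D02G223300 with 1719, 1949 and 3166 TPM.

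By its highest genes, group 4 was the most even. TraesCS4A02G499500 had 2138, 2334 and 2747 TPM in replicates 1, 2 and 3, TraesCS4B02G140300 had 1996, 1946 and 2380 TPM, and TraesCS4D02G135000 had 2177, 2286 and 2652 TPM. The replicates of these genes overlapped. Their transcripts differed in length, at 462 bases on 4A, 1944 on 4B and 1804 on 4D. In group 5, TraesCS5A02G165700 had 2233, 2445 and 6031 TPM and TraesCS5B02G052700 had 2976, 3133 and 2498 TPM, both below TraesCS5D02G425100 in every replicate.

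In group 6, TraesCS6B02G250500 was followed by TraesCS6D02G152700 with 1228, 1309 and 1551 TPM and TraesCS6A02G358100 with 1263, 1297 and 1475 TPM. The A and D genes overlapped. In group 7, TraesCS7D02G256300 exceeded TraesCS7A02G276400, with 1682, 1790 and 2834 TPM, and TraesCS7B02G192500, with 1096, 1130 and 1640 TPM, in every replicate.

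The abundant genes had short transcripts. Taking for each gene the transcript with the highest median TPM, the median length was 913 bases (quartiles 665 and 1197), against 1593 bases (quartiles 1082 and 2249) for the 70587 other high-confidence genes above 0 TPM. Only 3 of the 175 (1.71%) exceeded 2000 bases, against 32.9% of the others, and 27 (15.4%) were under 300 bases, against 1.84%. Effective length enters TPM as a divisor, so length is part of the rule and the difference is a description. Without the length correction, a limit of 500 CPM gave 157 genes with a median length of 1228 bases, of which 119 were among the 175. A single annotated transcript was listed for 143 of the 175 genes (81.7%, against 78.2% of the others). The leading transcript carried less than 90% of the gene's TPM in 10 genes, so for nearly all of them the gene value was that of a single transcript.

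The longest transcripts were those of TraesCS2B02G270300 (2216 bases, with 534, 565 and 713 TPM in replicates 1, 2 and 3), TraesCS2B02G528300 (2210 bases, with 533, 550 and 739 TPM) and TraesCS3D02G440200 (2080 bases, with 736, 669 and 492 TPM). All lay in the lower part of the range of TPM, yet they rested on 87285, 85824 and 90212 estimated counts in the median replicate, above the median of the 175.

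At the other end stood 27 genes with transcripts under 300 bases. All had lengths that are a multiple of 3, as in gene models that hold a coding sequence and no untranslated regions. Such lengths made up 61.7% of the 175 genes and 53.9% of the listed high-confidence genes. Among the 12 abundant genes from 300 to below 600 bases they made up 91.7%. The share among all listed genes under 300 bases was not counted. The 27 short genes supplied 8 of the 15 highest genes. In TPM they took 10.6%, 8.40% and 12.2% of the libraries in replicates 1, 2 and 3, and in estimated counts 1.04%, 0.707% and 1.27%. The 27 had a median of 11727 estimated counts and a median of 2074 TPM. The 43 genes of 1200 bases or more had medians of 98820 estimated counts and 1071 TPM. TPM divides counts by effective length, so a short transcript has fewer counts at a given TPM by construction. Dividing by annotated length in place of effective length kept 18 of the 27 short genes and 145 of the 148 others at 500 TPM or more. TraesCS3B02G523500 then had a median of 15769 TPM, against 28591 TPM as deposited, while TraesCS3B02G186100 had 89713 TPM, against 77515 TPM.

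**Figure D4:**
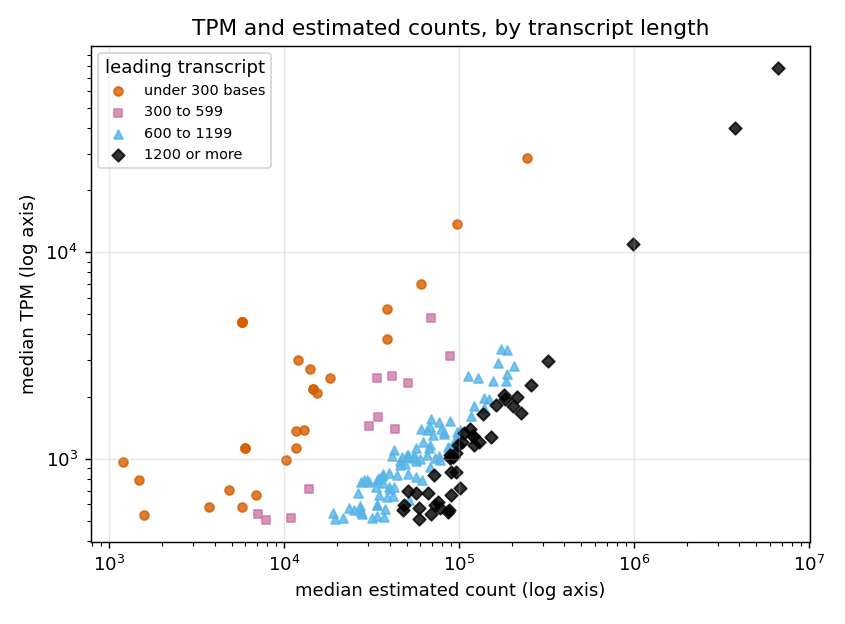
Median TPM (vertical log axis) against median estimated count (horizontal log axis) of the 175 genes, coloured by the length of the leading transcript. Of the 27 genes under 300 bases, 24 lie at or left of the median of 56705 counts and 3 to the right of it, TraesCS3B02G523500 farthest with 243522 counts, and genes with identical values lie on the same point.

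The shortest transcripts, of 105 bases, belonged to TraesCS1D02G180500, TraesCS2D02G573200 and TraesCS3B02G563300. These genes on 3 chromosomes had identical values, 3573, 4609 and 5592 TPM and 4598, 5754 and 6135 estimated counts in replicates 1, 2 and 3. Their median effective length was 16.3 bases, and with annotated length each had a median of 969 TPM. TraesCS5D02G457400 and TraesCS7D02G255400 (240 bases) shared 2724, 746 and 2171 TPM, and TraesCS2D02G573100 and TraesCS5D02G458300 (213 bases) shared 1090, 1126 and 1364 TPM. Quantification that divides reads over all the transcripts they are compatible with gives equal values to copies of the same sequence, and then does not show which copy was transcribed. The sequences of these genes were not used here. Summed over the 3 genes, the 105-base transcripts had 10718, 13826 and 16775 TPM. Identical values occurred in 7 of the 175 genes (4.00%) and in 104 of the 56333 high-confidence genes with a median of at least 10 estimated counts (0.185%). The 7 had transcripts of 105, 213 or 240 bases, and the background was not matched for transcript length. Where genes are near-identical in sequence, the split of reads between them is uncertain.

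Some abundant genes were direct neighbours. In the order of the listed high-confidence genes, 7 pairs of adjacent genes were both at 500 TPM or more, in 6 runs with 13 genes (7.43% of the 175), and the longest run had 3 genes. With the genes chosen anew without replicate 1, or without replicate 2, there were 11 such pairs, and without replicate 3 there were 7. Chosen in replicates 1, 2 and 3 alone, they gave 5, 8 and 14 pairs. Among the 175 genes, 16 pairs with 29 genes (16.6%) lay within 5 places. Beside these shares, the 175 made up 0.166% of all listed high-confidence genes. Pairs were not counted in other sets of genes of the same size. The 332 genes next to an abundant gene that were not abundant themselves had a median of 0.695 TPM and 76.5% of them were above 0 TPM, against 0.191 TPM and 67.2% over all high-confidence genes below the limit. Of these neighbours 18 (5.42%) had 100 TPM or more, against 0.563%.

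The run of 3 lay at 10.9% of the gene order along chromosome 2D. TraesCS2D02G065100 had 433, 554 and 2558 TPM in replicates 1, 2 and 3, TraesCS2D02G065200 had 990, 1122 and 3538 TPM, and TraesCS2D02G065300 had 493, 600 and 1768 TPM. On chromosome 2A, at 11.3% of the gene order, TraesCS2A02G066700 had 468, 566 and 2450 TPM and its neighbour TraesCS2A02G066800 had 2108, 2514 and 5170 TPM, both with transcripts of 762 bases. In all of these, replicate 3 was above both other replicates by more than their difference.

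On group 4 a run of 2 occurred on each subgenome. TraesCS4A02G177500 had 1738, 1790 and 2028 TPM and TraesCS4A02G177600 had 1272, 1631 and 1072 TPM. TraesCS4B02G140200 had 557, 775 and 598 TPM and TraesCS4B02G140300 had 1996, 1946 and 2380 TPM. TraesCS4D02G134900 had 867, 1173 and 626 TPM and TraesCS4D02G135000 had 2177, 2286 and 2652 TPM. In each run one gene was highest in replicate 3 and its neighbour was highest in replicate 2, so adjacent genes did not follow the same order over the replicates. Their transcripts were among the longer ones, from 1578 to 1944 bases. The remaining run joined TraesCS2D02G573100 and TraesCS2D02G573200, whose values were identical to those of genes on other chromosomes.

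Group 5 had close but not adjacent genes on each subgenome. TraesCS5A02G165400 had 2377, 2351 and 5643 TPM, 3 places from TraesCS5A02G165700 with 2233, 2445 and 6031 TPM. TraesCS5B02G162600 had 2276, 2386 and 4195 TPM, 2 places from TraesCS5B02G162800 with 1953, 1973 and 5598 TPM. TraesCS5D02G169600 had 2625, 2894 and 5542 TPM, 2 places from TraesCS5D02G169900. All 6 genes were highest in replicate 3, as were 108 of the 175 abundant genes (61.7%). Whether neighbours shared their highest replicate more often than other abundant genes was not tested. Over all 14 runs within 5 places, the genes shared their highest replicate in 6 runs, replicate 3 each time, and differed in 8. Among those that differed, TraesCS1D02G180300, with 2073.6, 2471 and 1373 TPM, was highest in replicate 2 and lay 2 places from TraesCS1D02G180500, which was highest in replicate 3. TraesCS3B02G188600 had 2364, 3015 and 3933 TPM and TraesCS3B02G188900, 3 places from it, had 732, 702 and 415 TPM, in the opposite order over the replicates. The others were the runs on group 4 and those of TraesCS1B02G404500 with TraesCS1B02G405000, TraesCS7D02G123800 with TraesCS7D02G124000, and TraesCS7D02G256000 with TraesCS7D02G256300.

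Over the 3 replicates, the coefficient of variation of the 175 genes had a median of 21.5% (quartiles 13.8% and 36.3%), against 28.4% for the 52620 high-confidence genes with at least 10 estimated counts and 25.1% for the 1391 of these between 50 and 500 TPM. The highest replicate was at least 2-fold above the lowest in 47 of the 175 genes (26.9%), against a background of 34.2% of the 52620 genes and 27.9% of the 1391. This spread came mostly with replicate 3. Between replicates 1 and 2 alone the median coefficient of variation was 4.89% for the abundant genes, against 8.50% for the 52620, and 12 abundant genes (6.86%) differed by at least 2-fold, against 3.40%. Of the 47 genes, replicate 3 was lowest in 24 and highest in 12, and in the other 11 replicate 2 was lowest and replicate 1 highest.

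The scale mattered for these counts. When estimated counts were divided by median-of-ratios size factors in place of TPM, the median log2 ratio of replicate 3 to the others was 0.88 over the abundant genes and -0.01 over the 52620 genes. On that scale 87 of the 175 (49.7%) passed the 2-fold ratio, against 19.1% of the 52620. Replicate 3 was highest in 134 of the 175 (76.6%) with size factors, beside 41.9% of the 52620, and in 108 (61.7%) on the TPM scale, beside 14.3%. A scaling moves all genes of a library alike, so the gap between the abundant genes and the median gene is nearly the same on each scale by construction, whereas the number of genes beyond 2-fold depended on the scale.

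**Figure D5:**
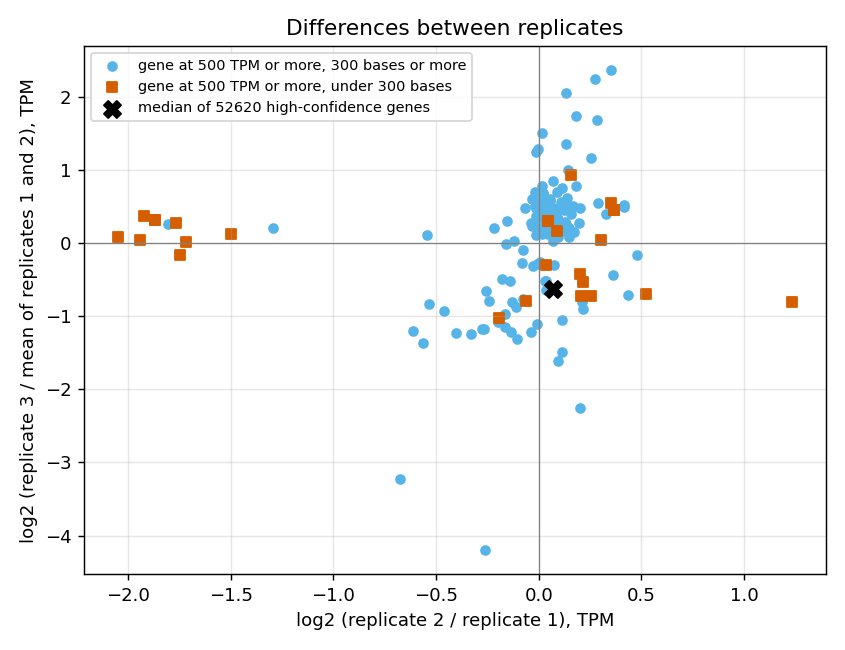
Log2 ratio of replicate 3 to the mean of replicates 1 and 2 (vertical axis) against the log2 ratio of replicate 2 to replicate 1 (horizontal axis), in TPM, for the 175 genes, with those under 300 bases as squares and the median of 52620 high-confidence genes as a cross at 0.07 and -0.62. Of the genes far to the left, low in replicate 2, most are squares, and most other genes lie above the cross.

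Replicate 2 was at least 2-fold below both other replicates in 9 of the 175 genes (5.14%), where the background was 0.471% of the 52620 genes and 1.08% of the 1391 between 50 and 500 TPM. On the size factor scale there were 11 such genes (6.29%), beside 0.813% of the 52620. The 9 had transcripts of 240 to 356 bases, 8 of them under 300, and ranged over chromosomes 1A, 3B, 5D, 6B and 7D. Besides those given above (TraesCS6B02G250500, TraesCS7D02G256000, TraesCS3B02G486700, TraesCS1A02G384800, TraesCS5D02G457400 and TraesCS7D02G255400), they were TraesCS1A02G000700 with 1845, 654 and 1362 TPM in replicates 1, 2 and 3, TraesCS6B02G117700 with 1734, 451 and 1130 TPM, and TraesCS3B02G515600 with 807, 213 and 664 TPM. Replicate 1 was 2.82 to 4.14 times replicate 2 and replicate 3 was 2.08 to 3.12 times replicate 2. Their summed TPM was 49571 in replicate 1, 14236 in replicate 2 and 35043 in replicate 3. Among the 9, TraesCS5D02G457400 and TraesCS7D02G255400 shared the same values and were counted separately. The background was not matched for transcript length, and the part of length in this pattern was not tested.

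Replicate 3 was at least 2-fold above both others in 10 of the 175 genes (5.71%). The background was 3.38% of the 52620 genes and 4.74% of the 1391 between 50 and 500 TPM. All 10 lay on groups 2 and 5, which held 45 and 36 of the 175 genes. The chromosomes of the background genes in this class were not counted. Several of the 10 were close neighbours and may not be independent. Those on group 2 were the genes of the runs on 2A and at 10.9% of 2D described above and TraesCS2B02G079200 (595, 653 and 2598 TPM). Those on group 5 were TraesCS5A02G165400, TraesCS5A02G165700, TraesCS5B02G162800 and TraesCS5D02G169900. The excess of replicate 3 over the higher of the other replicates ran from 2.06 to 4.62 times. On the size factor scale 54 of the 175 genes passed this limit, (30.9%), against 7.88% of the 52620.

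Replicate 3 was at least 2-fold below both others in 15 genes (8.57%), beside a background of 14.8%. On the size factor scale there were 3 such genes (1.71%), beside 2.15% of the 52620, so the share of abundant genes was then close to the background. TraesCS1D02G040500 had 1396, 1163 and 69.6 TPM in replicates 1, 2 and 3, a ratio of 20.1 between highest and lowest and the widest of the 175. TraesCS6D02G358900 had 1257, 786 and 110 TPM, a ratio of 11.5, and TraesCS3D02G141100 had 544, 624 and 123 TPM, a ratio of 5.08. With TraesCS2D02G065100 and TraesCS2A02G066700, at ratios of 5.90 and 5.23 in the other direction, these were the 5 genes with the widest ratio of highest to lowest. By coefficient of variation the order was another, led by TraesCS2D02G065100 (101%), TraesCS2A02G066700 (96.2%) and TraesCS2B02G079200 (88.9%), while TraesCS3D02G141100 (62.6%) was not among the first 5. The others of the 15 had ratios of replicate 1 or 2, whichever was lower, to replicate 3 of 2.03 to 2.97. No abundant gene had replicate 1 at least 2-fold above or below both others (backgrounds of 0.209% and 0.585%). TraesCS7D02G123800, with 583, 1368 and 561 TPM, was the only gene with replicate 2 at least 2-fold above both others (background 1.39%), and on the size factor scale none was.

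The 5 steadiest genes were TraesCS2B02G272300, whose ratio of highest to lowest was 1.05, TraesCS3A02G321900 (1386, 1372 and 1492 TPM in replicates 1, 2 and 3), TraesCS3B02G187700, TraesCS1D02G411300 (1737, 1645 and 1584 TPM) and TraesCS2A02G187200 (1297, 1384 and 1423 TPM), with coefficients of variation of 2.66% to 4.72%. On the size factor scale their ratios lay between 1.51 and 1.73, so their steadiness held for their part of the library and not relative to the median gene. Replicate 3 was the highest and replicate 1 the lowest in 91 of the 175 genes (52.0%), an order found in 8.06% of the 52620 genes and 16.3% of the 1391 between 50 and 500 TPM. With 3 libraries of a single group, none of these patterns between replicates can be tied to a condition.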

How the data were processed

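RNA-seq was made from poly(A) RNA of Chinese Spring shoots in 3 biological replicates. The authors trimmed reads (Trimmomatic 0.36, per the submitters' processing notes) and quantified transcripts with kallisto, whose version is not given in the sources used here, on the IWGSC RefSeq v1.1 gene models, taking the high-confidence models and those low-confidence models that overlapped histone mark peaks, without genes on unanchored scaffolds. The deposited tables hold estimated counts, which are not normalized, and TPM values, which the authors' quantification scaled to the same total per library, besides transcript lengths. From these, TPM and counts were summed over the transcripts of a gene, and the median of the replicates was compared with a limit of 500. Chromosome, gene order and confidence class were read from the identifiers. High-confidence genes counted in this way numbered 105200, slightly more than the paper gives for its annotation. Genome coordinates and sequences were not used here. The members, lists and alternatives were chosen with earlier results of these data known. Named genes are the 15 highest, the 5 most and 5 least variable, those in runs of neighbours, the 3 on either side of the limit, the 3 longest and the 3 shortest, and the highest of each chromosome. The genes with a replicate at least 2-fold from both others and those within 5 places were chosen after their values were seen. Groups by product name were not formed, because no identifier was paired with a product. Background genes had at least 10 estimated counts in each replicate. No p-values were computed, since there is a single group. The functions were tested on simulated data. Python 3.11.15, numpy 2.4.6, pandas 2.3.3 and matplotlib 3.10.9 were used.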

Additional observations from a re-analysis of the deposited data

How the results depend on the processing

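The number of genes at the limit was 182 to 191 with a replicate left out, 322 at 250 TPM and 100 at 1000 TPM. Leaving out a replicate gave shares of 38.5% to 44.9% of TPM and 29.6% to 37.3% of counts, 27.7% to 29.5% of genes on A, 33.9% to 35.2% on B, 36.6% to 37.2% on D and 24.6% to 31.3% on group 2, median lengths of 913 to 954.5 bases, and 7 to 11 neighbouring pairs. The median coefficient of variation was 5.38% without replicate 3 and up to 25.3% otherwise, and the genes past 2-fold were 8.74% to 24.7%. Subgenome D held 36.8% by the mean of the replicates, 35.5% by the lowest replicate, 36.8% by the highest transcript and 33.1% by CPM. Subgenome A held 30.4% by the lowest replicate, 32% at 1000 TPM and 30.6% by CPM, and B 31% at 1000 TPM and 36.3% by CPM. Group 2 held 29.1% by the mean and 21% at 1000 TPM, where group 5 minus group 2 was 3 percentage points (-5.14 at 500 TPM). The median length was 929.5 bases by the mean, 930 by the lowest replicate, 936 at 250 and at 1000 TPM, 882 by the highest transcript, 1228 by CPM, 972 with annotated length and 886 weighted by TPM. Neighbouring pairs numbered 11 by the mean, 4 by the lowest replicate and by CPM, 15 at 250 TPM, 2 at 1000 TPM and 16 within 5 places. By the lowest replicate 15.9% passed 2-fold. With size factors the median coefficient of variation was 41.1% and 49.7% passed 2-fold. Over high-confidence genes alone the share of TPM was 49.6%. The following were chosen after seeing the data. Rescaling without the 5 highest genes gave 31.5% of TPM, 22.1% of counts, 36.8% on D and 868.5 bases. Genes of 300 bases or more gave 31.6% of TPM, 31.1% on A and 975.5 bases, and identical values counted once gave 36.8% on D. Subgenome B exceeded D by 5.66 percentage points of TPM on average, by -2.06 without the highest gene and by 1.94 without the 2 highest. Of 133 values compared beside those with a replicate left out, 91 stayed within the spread of the replicates (for counts and the median coefficient of variation 1.5 times, for the part past 2-fold its binomial interval) and 42 did not. The binomial interval takes genes as independent, which copies of each other are not. The cause of these differences was not tested beyond what each setting changes by construction. No paired analysis was possible because the libraries form a single group. The TPM of short genes depends on the effective length used, and the error of their estimated counts was not measured. The precision for all genes is limited by 3 libraries.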
